A study of Danio rerio with 2 samples.

Results

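The genes described here encode transcription factors of the retina, and 9 gene names were looked up: crx, otx5, nr2e3, nrl, rx1, rx2, vsx1, six7 and prox1a. Names were compared ignoring case with a table that pairs Ensembl gene IDs and symbols, and a symbol written only in capitals without a copy letter stood for the name. This found 9 of the 26597 genes in the deposited table, for 8 of the 9 names. The name crx met 2 genes, crx (ENSDARG00000011989) and a gene listed as CRX (ENSDARG00000043483), called the second CRX gene below. The name otx5 met no Ensembl ID, and the RefSeq entries used here carry no Ensembl ID for any of the 9 names. Whether the second CRX gene is the gene known as otx5 was therefore not settled, and no value is given under the name otx5. The other genes are NR2E3 (ENSDARG00000045904), nrl (ENSDARG00000100466), rx1 (ENSDARG00000071684), rx2 (ENSDARG00000040321), VSX1 (ENSDARG00000056292), six7 (ENSDARG00000070107) and PROX1 (ENSDARG00000055158), the last taken for prox1a.

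RNA sequencing was done on 2 zebrafish libraries, 1 labelled as wild type and 1 as treated with salvianolate, which is made of salvianolic acids extracted from danshen root. Both carry the label of cardiac tissue, and the title of the treated sample names embryos. The sources used here give no strain, age, dose, duration or number of animals. Each group is a single library without replicates, and every interval below covers counting error only.

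The vertebrate retina forms from an eye field whose cells carry homeodomain factors of the RX, PAX and sine oculis families, and its progenitors later give rise to photoreceptors, horizontal, bipolar, amacrine and ganglion cells and to Mueller glia. Photoreceptor identity is then set by a small network. CRX and its OTX relatives switch on the genes of the outer segment, and in mouse NRL and NR2E3 direct rods and hold cone genes down. In zebrafish, six7 is needed for the opsins of middle wavelengths, and rx1 and rx2 act in photoreceptors. VSX1 marks bipolar cells. PROX1 is found in horizontal cells, and also in lens, liver, lymphatic endothelium and slow muscle. The OTX factors also work in the light-sensing pineal organ.

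The wild-type library held 19531764 rounded estimated counts and the treated library 19295524. Levels are given as CPM, which is the count scaled to library size with TMM factors, or, where genes are compared with each other, as FPKM, which is scaled to gene length. A gene entered a count when its higher level was at least 1 CPM (the floor), and 19829 genes did so. A fold is treated over wild type after adding 0.5 counts, with the exact 95% interval of the ratio. Of all these genes, 2.69% were at least 2-fold higher in the treated library with an interval that excludes 1, and 0.721% at least 2-fold lower. An interval above a ratio of 1 was found for 17.4% of genes and one below it for 17.3%. The series' design text gives 109 genes up and 565 down after treatment, while the labels give 533 higher and 143 lower here. These numbers need not rest on the same threshold or method. Among the 18884 genes above the floor in both libraries, 276 were higher and 63 lower. Whether labels or text are exchanged was not tested, and every direction below follows the labels.

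Of the 9 transcription factor genes, 7 stood at higher levels in the treated library beyond counting error, by folds from 1.13 for six7 to 2.03 for rx1. The interval of six7 began at 1.002. This number was 6 with upper-quartile factors, where six7 was lost, and 8 with total counts. In all, 1 was at least 2-fold higher and none at least 2-fold lower, against 2.69% and 0.721% of all genes. An interval above a ratio of 1 was found for 7 of 9, against 17.4% of all genes, and no gene had an interval below it. The members were chosen with earlier results of these data known, so this contrast is a description and not a test. Intervals narrow with the count, and among the 14748 genes of at least 5 CPM in either library the shares above and below were 18.8% and 21.3%. The largest folds were those of rx1, crx and rx2, while NR2E3 and nrl had intervals that include 1. The median log2 ratio was 0.38, where the median over all 19829 genes was -0.002. All 9 genes were above 1 CPM in both libraries, so none entered through the treated library alone. In these bulk libraries a larger share of retinal cells and more RNA of these genes per cell cannot be told apart.

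Of the photoreceptor activators, crx had 2105 wild-type counts and 3645 counts after treatment. These are 110.1 CPM (interval 105.5 to 114.9) and 184.8 CPM (178.9 to 190.9). The treated level was the higher by 1.68-fold (1.59 to 1.77), and the intervals of the levels lie far apart. Only 953 of the 19829 genes, 4.81%, had a higher ratio. The second CRX gene stood at 40.3 CPM in wild type and at 52.3 CPM after treatment, from 770 and 1031 counts, a fold of 1.30 (1.18 to 1.43). Both genes listed under the name crx, of which the second may be the gene known as otx5, were higher in the treated library. The fold of crx exceeded that of the second gene by a factor of 1.29 (1.16 to 1.44). Such a ratio of folds between 2 genes does not depend on how the libraries are scaled. The sources used here do not say how the authors' estimation shared reads between similar copies.

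The rod factors had the folds nearest to 1, though by the ratio of folds neither could be told from six7 or PROX1. NR2E3, an orphan nuclear receptor, had 435 and 497 counts, or 22.8 CPM in wild type and at 25.2 CPM after treatment. Its fold of 1.11 (0.97 to 1.26) was within what counting error allows at this depth. The gene nrl, which encodes a leucine zipper protein of the MAF family, was the least counted of the 9, with 85 counts in wild type and 86 in treated. It stood at 4.45 and 4.36 CPM, a fold of 0.98 (0.72 to 1.34), so that a fold within these bounds could not be told from 1. The fold of crx exceeded that of NR2E3 by 1.52 (1.32 to 1.75) and that of nrl by 1.71 (1.25 to 2.35).

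The retinal homeobox genes had large folds from low levels. In wild type rx1 had 166 counts, 8.69 CPM, and in treated 349 counts, 17.7 CPM. Its fold was 2.03 (1.69 to 2.47), the only one of the 9 to reach 2, and its interval reaches well below 2. With FPKM and a pseudocount of 0.5 its log2 ratio was 0.97, which is short of a fold of 2. Without the pseudocount its FPKM values, 2.95 in wild type and 6.27 in treated, were more than 2-fold apart. The related rx2 stood at 6.64 CPM in wild type and at 10.4 CPM after treatment, from 127 and 205 counts, a fold of 1.56 (1.25 to 1.97). The folds of rx1 and rx2 differed by a factor of 1.30 (0.97 to 1.76), which includes 1. Both lie among the higher ratios of the table, with 2.68% of genes above rx1 and 6.21% above rx2.

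The cone factor six7 had 515 and 600 counts, 26.9 CPM in wild type and at 30.4 CPM after treatment. Its fold was 1.13 (1.002 to 1.27), and with upper-quartile scaling the interval, 0.992 to 1.26, included 1. The bipolar cell gene VSX1 stood at 66.2 CPM in wild type and at 88.3 CPM after treatment, from 1265 and 1742 counts. Its fold was 1.33 (1.24 to 1.44). PROX1, a prospero-type homeobox gene, stood at 63.0 and 72.2 CPM, from 1204 and 1423 counts, with a fold of 1.15 (1.06 to 1.24). The intervals of VSX1 levels were well apart, and those of PROX1 were closer, with 66.7 CPM as the upper bound in wild type and 68.5 CPM as the lower bound in treated.

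Among the 36 pairs that the 9 genes form, the ratio of folds had an interval excluding 1 in 20 pairs, with no allowance for the number of pairs. In all 20 the gene with the larger fold was rx1, crx, rx2, VSX1 or the second CRX gene. The fold of rx1 exceeded that of PROX1 by 1.78 (1.45 to 2.19) and that of six7 by 1.80 (1.44 to 2.26). The fold of VSX1 exceeded that of PROX1 by 1.17 (1.05 to 1.30). No pair among NR2E3, nrl, six7 and PROX1 had an interval that excludes 1. The folds of crx and rx1 could not be told apart, with a ratio of 0.82 (0.68 to 1.002).

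Per length, crx was the most abundant of the 9 genes in both libraries, at 45.3 FPKM in wild type and 79.3 FPKM in treated. VSX1 followed at 41.1 and 57.3 FPKM, then the second CRX gene at 22.6 and 30.6, PROX1 at 21.5 and 25.7 and NR2E3 at 10.8 and 12.4 FPKM. The lower levels were those of six7 at 6.46 and 7.62 FPKM, rx2 at 4.82 and 7.67, nrl at 2.97 and 3.04 and rx1 at 2.95 and 6.27 FPKM. In wild type the neighbours crx and VSX1, the second CRX gene and PROX1, and nrl and rx1 had overlapping counting intervals. In treated only rx2 and six7 did. The first 5 places were the same in both libraries, and the lower 4 genes changed order. Of all counts in the 9 genes, crx took 31.6% in wild type and 38.1% in treated, while PROX1 took 18.0% and 14.9%.

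**Figure D1:**
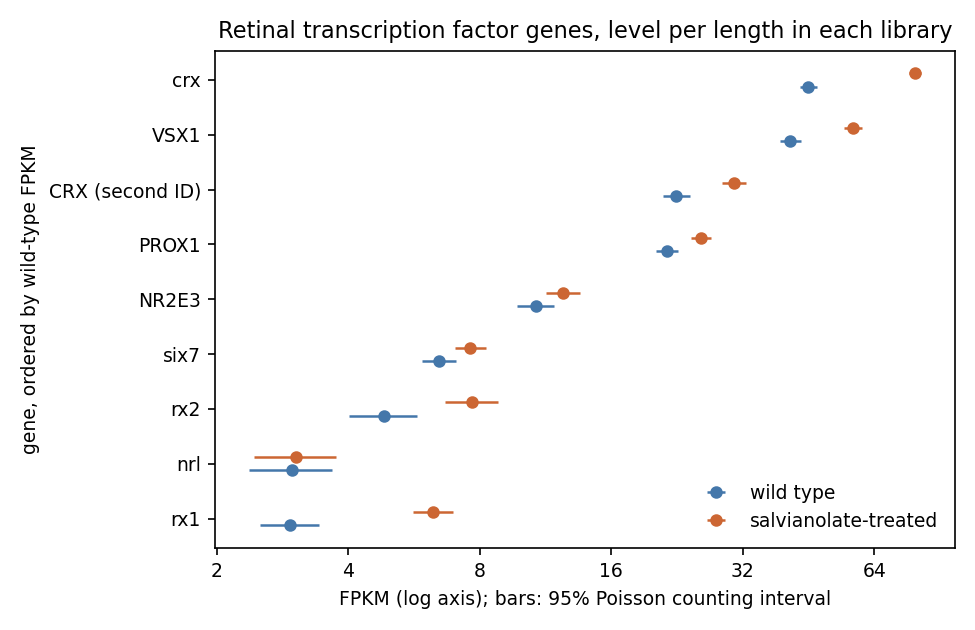
Level per length (FPKM, log axis) of each of the 9 genes in the wild-type library (blue) and the salvianolate-treated library (orange), with 95% Poisson counting intervals. Intervals of the libraries lie apart for crx, at 45.3 and 79.3 FPKM, and for rx1, at 2.95 and 6.27 FPKM, and overlap for nrl.

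Relatives in the same gene families did not all go with the retinal members. In the OTX family, OTX2 (ENSDARG00000011235), which acts in the forebrain and midbrain as well as upstream of photoreceptors, stood at 77.6 CPM in wild type and at 68.7 CPM after treatment. Its log2 ratio was -0.18 (-0.28 to -0.07), and that of otx2a, at 10.1 and 7.71 CPM, was -0.38 (-0.70 to -0.07). OTX1 had -0.07 (-0.28 to 0.13). The fold of crx exceeded that of OTX2 by 1.90 (1.73 to 2.08) and that of otx2a by 2.19 (1.75 to 2.74). The second CRX gene exceeded OTX2 by 1.47 (1.30 to 1.66). All 6 comparisons of the crx genes with these relatives had intervals above 1.

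Outside the OTX family, no member could be told from the relatives compared with it. VSX1 had no relative to compare, and nrl was compared with MAFA alone. The eye field gene rx3 stood at 5.18 and 7.96 CPM, with 0.62 (0.25 to 0.998) as its log2 ratio, and its fold could not be told from that of rx1 or rx2. NR2E1, a gene of neural progenitors, had -0.05 (-0.27 to 0.17), and NR2E3 was not separable from it, with a ratio of folds of 1.15 (0.94 to 1.40). MAFA, a MAF relative of nrl, had 0.33 (0.11 to 0.55), and the fold of nrl could not be told from it, with a ratio of folds of 0.78 (0.55 to 1.10). Both genes named SIX3 and 1 of those named SIX6 had intervals above a ratio of 1, at 0.40, 0.30 and 0.42, while the other SIX6 gene had -0.12 (-0.61 to 0.36). PROX2 had 0.23 (-0.15 to 0.61) and prox3 0.31 (0.07 to 0.56). Of 16 comparisons of a member with a relative, 6 had an interval that excludes 1. Of the 21 relatives above the floor in the longer list, none was 2-fold higher or lower, and the median was -0.05. The interval lay above a ratio of 1 for 6 and below it for 2. Among the 18884 genes above the floor in both libraries these shares were 16.8% and 17.7%.

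**Figure D2:**
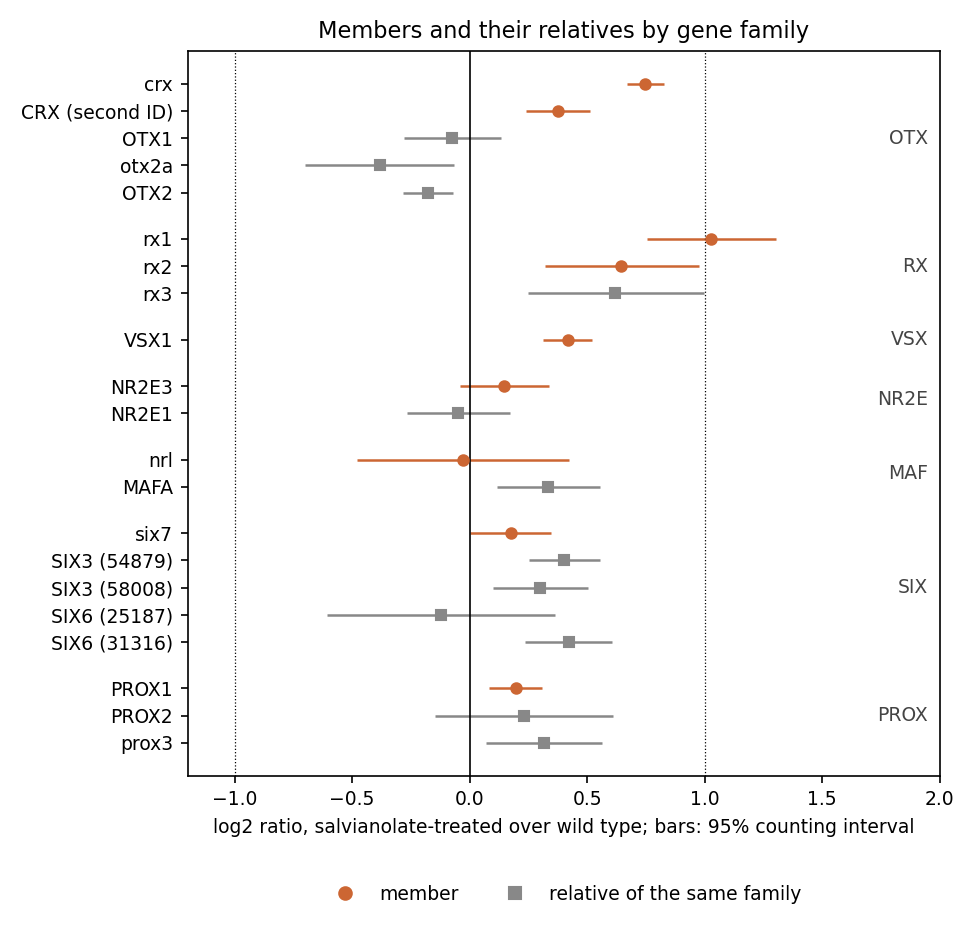
Log2 ratio of treated over wild type for the 9 members (orange circles) and relatives of their families (grey squares; where a symbol has several IDs, the last digits of the ID follow), with 95% counting intervals; dotted lines mark a fold of 2. In the OTX family both crx genes, at 0.75 and 0.38, lie above 0, while otx2a and OTX2, at -0.38 and -0.18, lie below it.

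Other transcription factors of the retina went both ways. The lists were written with earlier results of these data known, and they share genes, so their counts are not independent. Of 14 further factors of the photoreceptor lineage, none was 2-fold higher or lower. An interval above a ratio of 1 was found for 4 and below it for 3, with a median log2 ratio of 0.05. Those 3 were OTX2 and otx2a, described above as relatives, and ONECUT1, which is also in the inner retina and horizontal cell lists. NEUROD1, a proneural factor of photoreceptor precursors, stood at 141.6 CPM in wild type and at 181.3 CPM after treatment, with 0.36 (0.28 to 0.43) as its log2 ratio. SAMD7, a photoreceptor chromatin protein in mouse, had the highest ratio, 0.45 (0.23 to 0.68), and ONECUT1, a factor of horizontal and ganglion cell precursors, the lowest, -0.61 (-0.79 to -0.43). Of 18 eye field and progenitor factors, the interval lay above a ratio of 1 for 7 and below it for 4, with a median of 0.10. Among those 7, rx3, both SIX3 genes and 1 SIX6 gene were already described as relatives. In that list rx3 had the highest ratio, foxd1, a gene of the temporal retina, the lowest at -0.33 (-0.53 to -0.12), and MEIS1 was the most abundant, at 103.1 and 98.8 FPKM.

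Of 23 factors of the inner retina above the floor in both libraries, 10 had an interval above and 6 below a ratio of 1, none reached a fold of 2, and the median was 0.0066. Of all 18884 genes above the floor in both, 16.8% had an interval above and 17.7% one below. POU4F3, a factor of ganglion cells and hair cells, had the highest ratio, 0.89 (0.46 to 1.33), from 3.61 and 6.69 CPM. The lowest was that of FOXN4, a progenitor factor for amacrine and horizontal cells, at 42.4 CPM in wild type and at 24.6 CPM after treatment, -0.78 (-0.95 to -0.62). TFAP2A, an amacrine cell factor that skin and neural crest also use, was the most abundant at 51.1 and 60.9 FPKM. Some genes linked to the same cell class had ratios of opposite sign. The 4 genes below were picked after the values were seen, as examples only, and the stage at which each acts was not compared. The ganglion cell gene atoh7 had -0.74 (-1.12 to -0.37), while POU4F2, another ganglion cell factor, had 0.21 (0.08 to 0.33). The amacrine and horizontal cell gene PTF1A had -0.68 (-1.19 to -0.18), while TFAP2B, an amacrine cell factor, had 0.23 (0.12 to 0.34).

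Genes of the photoreceptor outer segment and its signalling, many of which these factors are known to switch on, had higher medians than the factors. Of 15 cone effector genes above the floor in both libraries, 14 reached a fold of 2 in the treated library and none its inverse, with a median log2 ratio of 2.18. Of 13 such rod effector genes 10 were higher and none lower, with a median of 1.597. Of all 18884 genes above the floor in both libraries, 1.46% reached that fold upward and 0.334% downward. The rod list also holds PRPH2, ROM1 and rcvrna, and how far its genes are particular to rods was not tested. The lists overlap with the factors at their lower end. The lowest cone ratio was 0.37 (-0.04 to 0.79), for 1 of 2 genes named RGS9, and the lowest rod ratio that of gnb1b, a G protein subunit gene that many other cells use, which took 243 CPM in both libraries. The rod gene PDE6G, an inhibitory phosphodiesterase subunit, had 0.36 (0.19 to 0.54), below the ratios of crx, rx1 and rx2. Another 4 cone and 4 rod genes passed the floor through the treated library alone and are left out of these counts. Among them grk1b, a photoreceptor kinase gene, stood at 0.89 and 8.16 CPM and opn1mw2 at 0.47 and 3.50 CPM. The summed level of the cone list was 288 CPM in wild type and 1180 CPM after treatment, that of the rod list 336 and 486 CPM, and that of the 9 factors 349 and 486 CPM. The summed levels thus differed by 4.09-fold, 1.45-fold and 1.39-fold. These sums take in all IDs of a list, also those left out of the counts. In the rod sums gnb1b alone took 243 CPM in each library, so the rod genes without it differed by more than 1.45-fold. Of 25 cone IDs, 4 were at 0 counts in wild type and 1 in treated.

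For 4 factors, photoreceptor genes known to depend on them or their kind were set beside them, as a description, since these genes were chosen after the values were seen. The middle-wavelength opsin gene opn1mw1, which needs six7 in zebrafish, stood at 18.8 and 114 CPM, a fold of 6.06 (5.43 to 6.80), where six7 had 1.13. The long-wavelength opsin gene opn1lw2 stood at 74.1 and 368 CPM, a fold of 4.97 (4.69 to 5.26). THRB, the thyroid hormone receptor gene of red cones, had a log2 ratio of -0.04 (-0.20 to 0.13). The short-wavelength opsin gene opn1sw2 stood at 14.5 and 86.4 CPM, a fold of 5.95 (5.25 to 6.79), and foxq2, its activator in blue cones, had a log2 ratio of 0.35 (-0.26 to 0.97). Of genes known to answer to CRX, the cone transducin gene GNAT2 stood at 11.8 and 61.3 CPM, a fold of 5.17, where crx had 1.68. The 2 cone arrestin genes named ARR3 stood at 23.8 and 106 CPM (ENSDARG00000056511) and at 7.69 and 23.1 CPM (ENSDARG00000098475).

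Other tissues that use these factors were read beside them. Bipolar cell genes, where VSX1 acts, had a median log2 ratio of 0.65 over the 8 genes above the floor in both libraries, with 6 intervals above a ratio of 1 and none below. Another 2, cabp5a and NYX, passed the floor through the treated library alone, at 1.37 and 1.32 CPM there. The retinoschisin gene rs1a had the highest ratio and the highest FPKM, and stood at 28.8 and 90.8 CPM. Summed levels were 133 and 255 CPM, of which rs1a and gnao1b, at 44.6 and 83.6 CPM, made up the larger part. How far rs1a or gnao1b is particular to bipolar cells was not tested. Of 6 horizontal cell names only 3 were matched, with ratios of -0.61 for ONECUT1, -0.16 for lhx1a and 0.39 for rem1. Mueller glia genes went both ways: of 7 above the floor in both libraries, 4 had an interval above and 3 below a ratio of 1, from -0.72 for apoeb, which other cells use, to 0.87 for rlbp1a, a retinaldehyde-binding protein gene. Whether the other genes of this list are particular to Mueller glia was not tested. The less abundant gene named SLC1A2 passed the floor through the treated library alone, at 0.68 and 4.82 CPM. Pineal genes, which the OTX factors also serve, were low in both libraries, with summed levels of 19.99 and 20.59 CPM. None of the 7 above the floor had an interval that excludes 1, with aanat2, the melatonin synthesis gene, at 0.34 (-0.17 to 0.85).

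For the sites of PROX1, lens genes had 10 of 15 intervals above a ratio of 1 and 1 below, a median of 0.35 and summed levels of 2526 and 3222 CPM. The lens range ran from -0.74 for foxe3 to 0.58 for crygmx. Slow muscle genes had 4 of 7 intervals above and none below, with a median of 0.12, liver genes 3 of 7 above and 3 below, with a median of 0.04, and lymphatic endothelium genes none of 8 above and 3 below, with a median of -0.13. Spinal V2 interneuron genes, another place of VSX expression, had 1 of 7 intervals above and 4 below. The 4 were GATA2, GATA3, LHX3 and FOXN4, which also had the lowest ratio in the inner retina list. How far the genes of this list are particular to V2 interneurons was not tested. Retinal pigment epithelium genes, many of which other pigment cells share, had 1 of 13 above and 9 below, with a median of -0.21. The interval above was that of 1 gene named RPE65 (ENSDARG00000007480), at 0.63 (0.40 to 0.88). Another RPE65 gene, rlbp1b and rgrb had intervals that include 1. The 9 below held the remaining RPE65 gene, at -0.22 (-0.40 to -0.04), and STRA6, as well as TYR at -0.52 and OCA2, the lowest, at -0.71. Genes of brain neurons had 10 of 12 above and 1 below, a median of 0.21 and summed levels of 1385 and 1605 CPM. For all these lists, the shares over the 18884 genes above the floor in both libraries were 16.8% above and 17.7% below. Intervals narrow with the count, so small folds of well-counted genes can exclude 1. The STMN2 gene with 2995 and 3359 counts had a fold of 1.09 (1.03 to 1.14). The part of any of these tissues in the values of PROX1, VSX1 or the OTX genes was not tested.

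**Figure D3:**
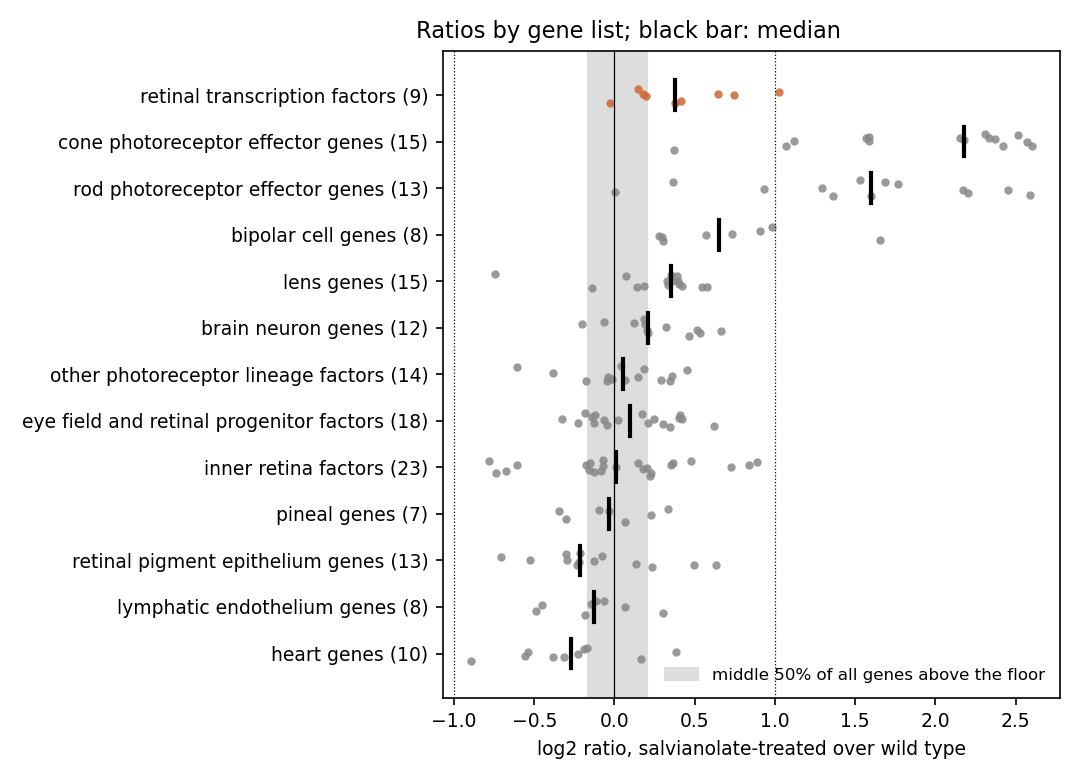
Log2 ratio of treated over wild type for each gene at or above 1 CPM in both libraries in the 9 transcription factor genes (orange) and in related lists (grey); black bars are medians, the number of genes stands in brackets, the grey band holds the middle 50% of all genes above the floor and dotted lines mark a fold of 2. The median of the retinal factors, 0.38, lies above that band, which runs from -0.16 to 0.20, and below the medians of the cone and rod effector genes, 2.18 and 1.597.

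The tissue label was read against heart markers. Of 11 heart names, 9 were matched and 2, vmhc and nkx2.5, met no ID. The most abundant per length was MYL7, the heart myosin light chain gene, at 18.3 FPKM in wild type and 14.7 FPKM in treated, below crx and VSX1 in both libraries. The whole heart list summed to 125 and 112 CPM, against 349 and 486 CPM for the 9 retinal factors. These sums are not scaled to gene length and lack vmhc and nkx2.5, so they do not measure heart against eye content. Of the 10 heart genes above the floor in both libraries, 1 had an interval above and 5 below a ratio of 1. Among all 18884 such genes the shares were 16.8% and 17.7%. The lens crystallin gene CRYBB1 stood at 786 FPKM in wild type and 1052 FPKM after treatment, so RNA of the eye was counted in both libraries under the cardiac label.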

How the data were processed

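The authors deposited estimated counts (expected counts) and FPKM per gene for 2 libraries, per the file headers. Per the submitters' processing notes, the build was danRer11 and the tools were HISAT2, Bowtie2 2.2.8, fastp 0.18.0, edgeR, DESeq2 and StringTie 1.3.1. The sources used here state neither their roles nor the annotation or strand use. The deposited single-library files hold the same counts for all 26597 genes. The deposited FPKM values follow total counts, with a median ratio of 1.01 between FPKM and count ratios.

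Counts were rounded and scaled with TMM factors (edgeR 4.0.16, R 4.3.3), which were 0.979 for wild type and 1.02 for treated. A prior of 0.5 counts entered the log2 ratio. Ratios have Clopper-Pearson 95% intervals, levels have Poisson intervals, and ratios of folds have exact conditional intervals (scipy 1.17.1, pandas 2.3.3, numpy 2.4.6, matplotlib 3.10.9, Python 3.11.15). At 3 counts a gene stands at 0.157 CPM in wild type and 0.152 in treated. The functions were tested on simulated data. With 1 library per group conditions were not tested against each other and p-values are absent. With 2 libraries a pattern across samples is a single ratio, so no gene was ranked by likeness.

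Symbols for 23499 of 25197 Ensembl IDs came from a table of names; 1400 assembled loci had no ID. A capital symbol without a copy letter may belong to either copy. The members and the 18 lists were chosen with earlier results of these data known, and the photoreceptor genes set beside single factors were picked after the values were seen. Related lists are counted over genes above the floor in both libraries, a choice made after the values were seen. All members are named, and of each other list the highest and lowest ratio and the highest FPKM, where the list is described in detail. Member genes were left out of the other lists, and a few genes of these lists are not reported here and enter no count or sum of them. Protein and promoter sequences were not used here.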

Additional observations from a re-analysis of the deposited data

How the results depend on the processing

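No paired analysis was possible because the design has a single library in each group. Of the 9 genes, 1 was at least 2-fold higher, against 2.69% of all genes. The number was 3 at a fold of 1.5, 0 at a fold of 4, 0 with an interval that excludes the fold of 2 and 0 with FPKM and a pseudocount of 0.5. It stayed at 1 with the other scalings, priors, floors and name rules, and no gene was 2-fold lower in any of these settings. Of all 19829 genes, 599 were at least 2-fold higher with total counts and 522 with upper-quartile factors, where TMM factors gave 533. All-gene shares at the other folds, with the stricter interval and with FPKM are not given here. The member counts there are therefore not read as a result about these genes. An interval above a ratio of 1 was found for 7 genes, for 8 with total counts, where NR2E3 joined, for 6 with upper-quartile factors, where six7 was lost, and for 4 of the 5 genes matched by exact spelling. Over all genes the share with TMM factors was 17.4%, and shares with the other factors are not given here. The median log2 ratio ran from 0.31, without the second CRX gene (chosen after seeing the data), to 0.64 with exact spelling. Total counts moved the median of all genes to 0.06, and nrl, whose interval includes 1, changed from -0.03 to 0.03. Under a floor of 5 CPM nrl was left out. No interval of the FPKM ratio was computed, so that count has no FPKM value. The planned comparison of protein and promoter sequences was not run. Depth limits nrl most, with 85 and 86 counts.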
